A study of Saccharomyces cerevisiae with 6 samples.

Results

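The genes described here are HAA1, 7 genes linked to its weak-acid regulon (TPO2, YRO2, YGP1, SPI1, PHM8, YLR297W and HRK1) and the membrane protein gene HSP30. These 9 genes are part of the 4014 in a table of mRNA 3′ ends of budding yeast, and they hold 31 of its 13565 clusters of polyadenylation (pA) sites. They were grouped by gene name and known function, but results on mRNA level from the same libraries were known at that time. Their values are therefore given as a description and without p-values.

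Budding yeast with JHD2 deleted (3 libraries) and wild-type yeast (3 libraries) had been harvested in mid-log phase. Jhd2 removes methyl groups from lysine 4 of histone H3 and is the yeast KDM5 enzyme, a class that the study examined for a part in 3′ untranslated region (UTR) length. Hot acid phenol was used to extract the RNA, which was sequenced by 3′READS, in which each counted read marks the end of a polyadenylated transcript. The sources used here do not give the strain background, the growth medium, the marker that replaced JHD2 or how many independent cultures there were, so each p-value reflects differences among libraries that could be technical in origin. The RNA is from bulk cultures, in which more expressing cells and more RNA per cell cannot be told apart.

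The table held 380332 to 480847 reads in the deletion libraries and 233749 to 368419 in the wild-type libraries. JHD2 had 0 clusters in it, and its loss cannot be seen in these counts. Wild-type replicate 2 stood apart from the other wild-type libraries, with correlations of log-scaled levels of 0.948 and 0.944 against 0.966 between wild-type replicates 1 and 3. The correlations were 0.972 to 0.975 among deletion libraries. Results are given without wild-type replicate 2 where it matters.

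Haa1 is a transcription factor that acts when yeast meets acetic and other weak organic acids. The undissociated acid crosses the plasma membrane and releases protons and anions inside the cell, and Haa1 then activates genes for membrane transporters, cell wall proteins and kinases that help the cell to export the anion and keep its pH. Hsp30 belongs to the same setting through the plasma membrane proton pump Pma1, whose activity it restrains during stress, and is similar in sequence to Yro2. Several of these genes, YGP1 and SPI1 among them, are also induced when glucose runs low.

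To show where the transcripts ended, the 30 bases up to and including the last base read are given for the ends on which the results turn, from the R64 genome. The capitals mark the start codon in the first 2 lines, which end in the first bases of the coding region, and the hexamer AATAAA, an A-rich element that places the cut, in the line for SPI1. The YGP1 end in the UTR has neither.
YGP1 early end (chrXIV:336536-336565, plus strand): taatagaaaATGaagttccaagttgtttta
YLR297W early end (chrXII:724040-724069, plus strand): gaaaATGgtcgaaggtgattttgtcgatga
YGP1 UTR end (chrXIV:337811-337840, plus strand): atgaaagaatcatataaattcttggccata
SPI1 main end (chrV:468945-468974, plus strand): tttgtgtgtagaatAATAAAtgtaattcta

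For HSP30, YRO2 and HAA1 the 30 bases ahead of that window are shown, since efficiency elements of yeast pA sites (TATATA and variants such as TACATA) lie there. The capitals mark these elements and AATAAA.
HSP30 main end, bases ahead (chrIII:155956-155985, minus strand): tgcaaAATAAAtTATATAcacaaacacaat
YRO2 main end, bases ahead (chrII:344522-344551, plus strand): atcaattatgtgtaTACATACATACATAca
HAA1 main end, bases ahead (chrXVI:575148-575177, plus strand): tcctcccacaTATATATATATATATAcact

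The mRNAs of the transporter gene, both membrane protein genes, both wall or secreted protein genes and YLR297W stood 2.75-fold to 4.68-fold higher in the deletion than in wild type. HAA1 and the kinase gene HRK1 had log2 fold changes of 0.16 (SE 0.23) and 0.26 (SE 0.22), with overlap between the groups. In the edgeR fit across all genes 6 of the 9 were past the threshold of adjusted p 0.05, all of them higher, against 36 of 3366 tested genes (1.07%) called higher, 8 (0.238%) called lower and 1.31% called in either direction. The same 6 had every deletion library above every wild-type library, as did 8.62% of all tested genes. Nothing is read from these counts, because the grouping used the same comparison. The reads of the 9 genes made up 0.328% to 0.343% of the table in the deletion libraries and 0.0955% to 0.110% in the wild-type libraries. Summed, their level was 3401 ± 63.9 scaled counts per 1e6 reads (CPM) in the deletion strain, against 1050.1 ± 85.0 CPM in wild type (SD, n = 3 each). Levels are not divided by gene length, since one read stands for one transcript end.

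**Figure D1:**
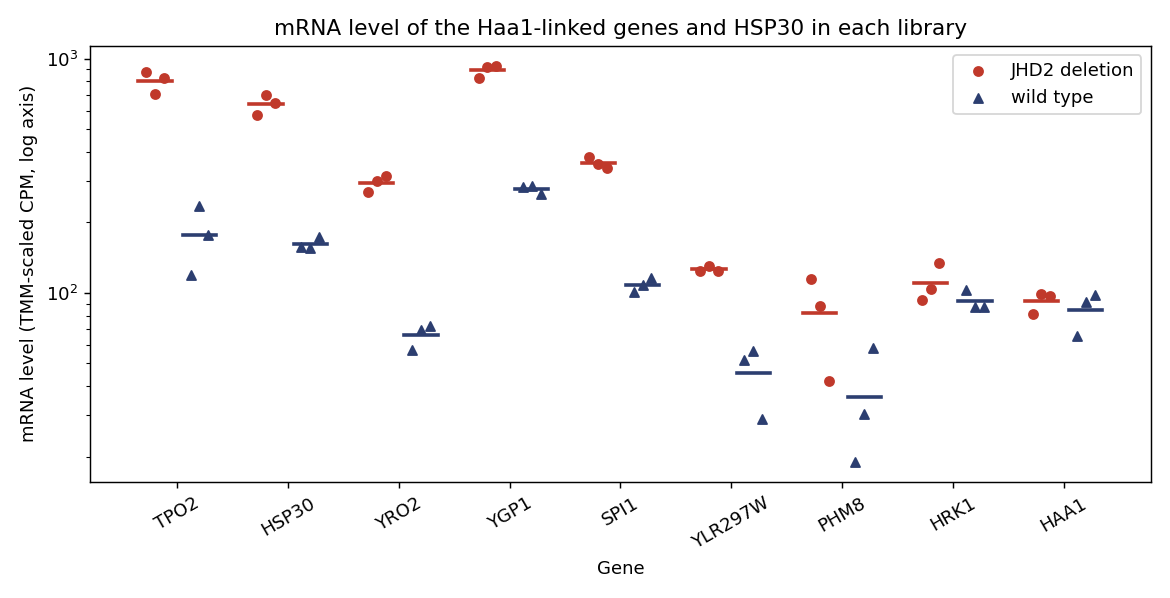
mRNA level of each gene in each library, in TMM-scaled CPM on a log axis, with deletion libraries as circles and wild-type libraries as triangles, and the group mean as a line (n = 3 each). For the first 6 genes from the left every deletion library lies above every wild-type library, while PHM8, HRK1 and HAA1 overlap.

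HAA1 (YPR008W, chromosome XVI, 573018 to 575102, plus strand) encodes the regulator itself. Its level was 81.5, 98.8 and 96.7 CPM in deletion replicates 1 to 3 and 65.1, 91.1 and 97.8 CPM in wild-type replicates 1 to 3. The groups overlapped, the lowest value being that of wild-type replicate 1. The log2 fold change was 0.16 (SE 0.23), with a 95% interval of -0.30 to 0.61 from that SE, and it was -0.05 without wild-type replicate 1. A table of mRNA ends holds no measure of where the Haa1 protein was or of its phosphorylation.

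TPO2 (YGR138C, chromosome VII, 763762 to 765606, minus strand) encodes a plasma membrane polyamine transporter of the multidrug family. It stood at 875, 707 and 828 CPM in the deletion libraries and at 119, 234 and 177 CPM in the wild-type libraries. No deletion library came near the wild-type range. The log2 fold change was 2.23 (SE 0.18), the highest of the 9, and 2.46 without wild-type replicate 2, which had the highest wild-type level. For TPO2 and the other 8 genes the 200 nt before the main end had no stretch of 100 nt at 95% identity elsewhere in the genome.

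YRO2 (YBR054W, chromosome II, 343101 to 344135, plus strand) encodes a plasma membrane protein that is related to Hsp30. Its level was 271, 302 and 315 CPM in the deletion strain, against 57.0, 69.4 and 72.4 CPM in wild type. The groups were far apart and each was narrow. The log2 fold change was 2.17 (SE 0.20).

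HSP30 (YCR021C, chromosome III, 156109 to 157107, minus strand) had 573, 699 and 649 CPM in the deletion strain, against 157, 156 and 174 CPM in wild type. The wild-type libraries differed little among themselves, and every deletion library was more than 3-fold above them. The log2 fold change was 1.98 (SE 0.17). The fold changes of YRO2 and HSP30 lay within about one SE of each other.

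YGP1 (YNL160W, chromosome XIV, 336545 to 337609, plus strand) encodes a secreted, heavily glycosylated protein of nutrient-limited cells. It was the most abundant of the 9, with 824, 921 and 933 CPM in the deletion strain, against 282, 286 and 264 CPM in wild type. SPI1 (YER150W, chromosome V, 468370 to 468816, plus strand) encodes a GPI-anchored cell wall protein that protects against weak acids. It had 379, 355 and 340.4 CPM in the deletion strain, against 100.4, 108 and 116 CPM in wild type. Neither gene showed overlap between groups. The log2 fold changes of YGP1 and SPI1 were 1.68 (SE 0.15) and 1.73 (SE 0.18), which differ by less than either SE. With clusters past the stop codon only they were 1.96 and 1.73.

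YLR297W (chromosome XII, 724044 to 724433, plus strand) encodes a short protein of unknown function. It had 125, 131 and 124 CPM in the deletion strain, against 51.6, 56.4 and 29.0 CPM in wild type. These levels rest on 52, 49 and 59 reads in the deletion strain, against 19, 13 and 8 in wild type. The groups did not overlap, and the log2 fold change was 1.46 (SE 0.25). With the most-read cluster of each gene alone it was 1.15 (SE 0.35) and no longer past the threshold.

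PHM8 (YER037W, chromosome V, 225889 to 226854, plus strand) encodes a nucleotide phosphatase that is induced by low phosphate. It had 115, 88.1 and 42.0 CPM in the deletion strain, against 19.0, 30.4 and 57.9 CPM in wild type. These levels rest on 48, 33 and 20 reads in the deletion strain, against 7, 7 and 16 in wild type. In CPM deletion replicate 3 lay below wild-type replicate 3, so the groups overlapped. The log2 fold change was 1.21 (SE 0.35) and not past the threshold. Without deletion replicate 3 it was 1.56 and without wild-type replicate 3 it was 1.76, both past the threshold. Without deletion replicate 1 it was 0.86 and without wild-type replicate 1 it was 0.81, neither past it. The fold change of PHM8 and its call thus depended on single libraries.

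HRK1 (YOR267C, chromosome XV, 822588 to 824867, minus strand) encodes a protein kinase that activates Pma1. It had 93.4, 104 and 134 CPM in the deletion strain, against 103, 86.8 and 86.9 CPM in wild type. The groups overlapped and the log2 fold change was 0.26 (SE 0.22). With clusters past the stop codon only it was -0.02.

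The order of the deletion means was YGP1 (893 ± 59.6 CPM), TPO2 (803 ± 86.3), HSP30 (640.4 ± 63.8), SPI1 (358 ± 19.3), YRO2 (296 ± 22.8), YLR297W (126 ± 3.77), HRK1 (111 ± 21.3), HAA1 (92.3 ± 9.44) and PHM8 (81.7 ± 36.9). In this order YGP1 and TPO2, and the genes from YLR297W to PHM8, were neighbours whose SDs overlapped. In wild type the order was YGP1 (278 ± 11.8 CPM), TPO2 (177 ± 57.5), HSP30 (162 ± 9.81), SPI1 (108 ± 7.72), HRK1 (92.3 ± 9.40), HAA1 (84.7 ± 17.2), YRO2 (66.3 ± 8.18), YLR297W (45.6 ± 14.7) and PHM8, whose mean of 35.8 came from the 3 values above. There TPO2 and HSP30 overlapped, and so did each pair of neighbours from SPI1 down to PHM8. YRO2 stood above HRK1 in every deletion library and below it in every wild-type library.

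**Figure D2:**
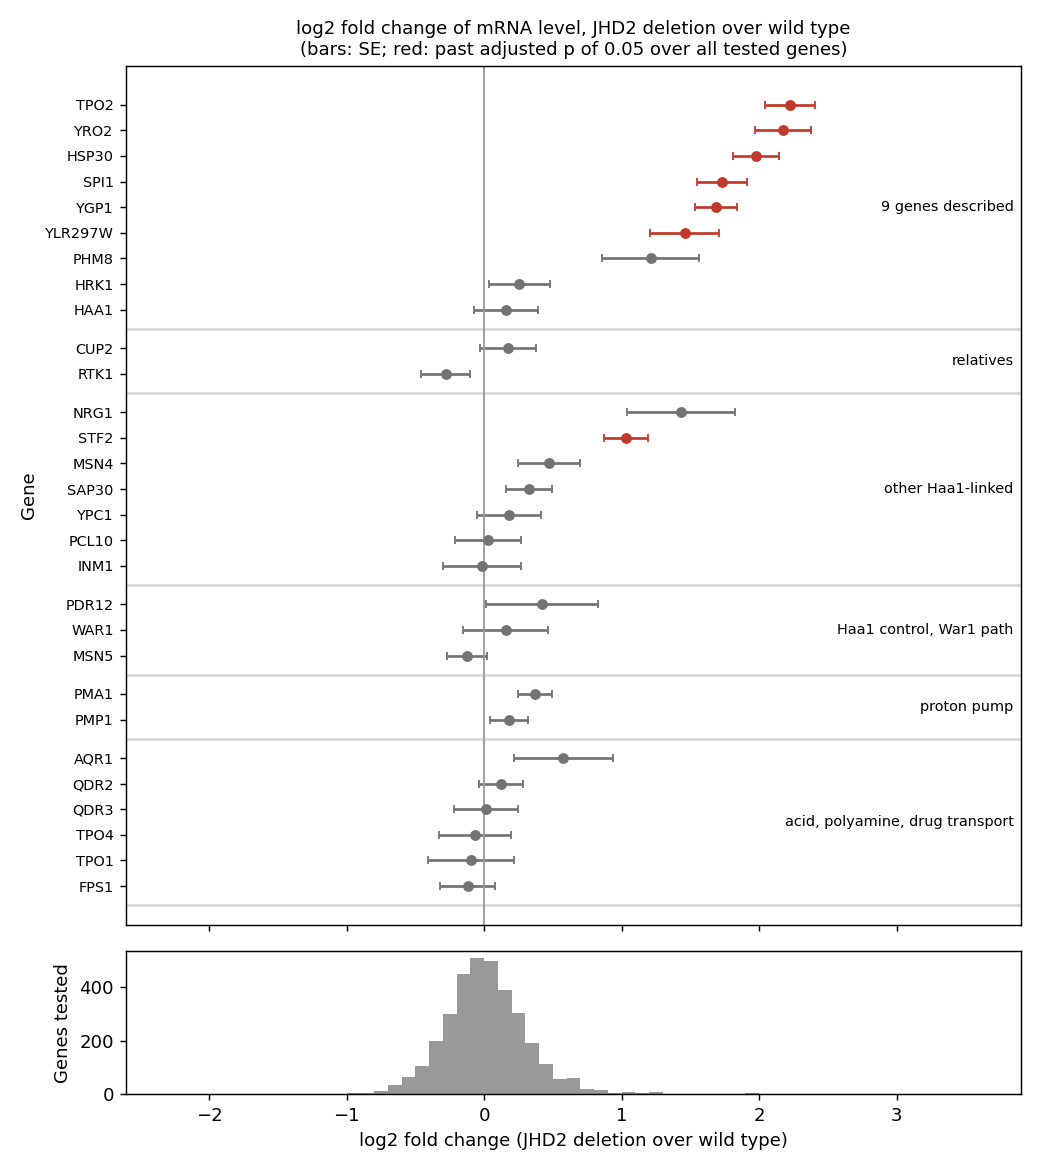
Upper panel: log2 fold change of mRNA level (deletion over wild type) with its SE for the 9 genes and for the tested genes of 5 related lists, red where the adjusted p over all tested genes was under 0.05. Lower panel: the same quantity for all 3366 tested genes, whose median was -0.00026.

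Other genes of weak-acid tolerance were taken from lists of known function, drawn up with earlier results of these data known. Nothing is therefore read from the counts or medians of these lists. Of 10 further genes linked to Haa1, 7 were tested, 1 was called higher and 0 lower, against 1.07% and 0.238% of all tested genes. The called gene was STF2, a small hydrophilic protein of desiccation tolerance, with 558, 638 and 668 CPM in the deletion strain, against 293, 252 and 366 CPM in wild type (log2 fold change 1.03, SE 0.16, adjusted p = 2.3e-05, edgeR). NRG1, a repressor of glucose-repressed genes, had 52.7, 58.7 and 39.9 CPM in the deletion strain, against 24.4, 21.7 and 7.24 CPM in wild type. These levels rest on 79 NRG1 reads over the 6 libraries together, so its counts were low. Its groups did not overlap, but its log2 fold change of 1.43 (SE 0.39) was not called (adjusted p = 0.052, edgeR), except without wild-type replicate 1 (1.81, adjusted p = 0.048). The other tested members ran from -0.02 (INM1) to 0.47 (MSN4), and SAP30, a histone deacetylase subunit, had 0.33 (SE 0.17). The median log2 fold change of these 7 was 0.33, against -0.00026 for all tested genes.

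Of 7 relatives in sequence of the 9 genes, 2 were tested and 0 were called (median -0.05). These were CUP2, the copper-sensing relative of HAA1 (0.18, SE 0.20), and RTK1, the relative of HRK1 (-0.28, SE 0.18). MRH1, SPS100, SED1, SDT1 and YOR186W had 0 clusters in the table, whose genes have 2 or more, so they could not be tested. Of 5 genes that control Haa1 or belong to the War1 pathway, 3 were tested and 0 called. These were MSN5, the exportin of Haa1 (-0.13, SE 0.15), WAR1 (0.16, SE 0.31) and its target PDR12, the pump for sorbate and benzoate (0.42, SE 0.41).

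Of 6 genes of the proton pump and its control 2 were tested and 0 called. PMA1 had 2398, 2525 and 2128 CPM in the deletion strain, against 1740, 1710 and 2006 CPM in wild type. The groups did not overlap, but the log2 fold change of 0.37 (SE 0.13) was not called (adjusted p = 0.19, edgeR). PMP1, a small proteolipid bound to the pump, had 0.18 (SE 0.14). Of 11 genes for transport of acids, polyamines and drugs 6 were tested, with a median of -0.03, and 0 were called. The other polyamine transporters in that list, TPO1 (-0.09, SE 0.31) and TPO4 (-0.07, SE 0.26), were not called, and the acid exporter AQR1 had the smallest p (0.58, SE 0.36, adjusted p = 0.62, edgeR).

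Outside the 9 genes, the profile across the 6 libraries most like their mean profile was that of NCE102, an organiser of plasma membrane eisosomes (Pearson r = 0.993). It was ranked among 2755 genes, and its log2 fold change was 0.56. The next were the hexose transporter genes HXT4 (r = 0.979, 2.19) and HXT7 (r = 0.976, 1.56), the mannosyltransferase gene PMT6 (r = 0.97, 0.60) and MBR1, a gene of respiratory growth (r = 0.969, 1.29). These r describe 6 points that fall into 2 groups, and they follow the difference between the groups. HXT7 is nearly identical to HXT6, so its reads are uncertain.

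The ends of the 9 mRNAs lay mostly past the stop codon, with 20 of 31 clusters there and 93.3% of their reads, against 97.8% of reads in the whole table. Positions are given in nt past the stop codon, which is also the length of the 3′ UTR at that site. The most-read cluster was at 105 (HAA1), 146 (TPO2), 158 (SPI1), 183 (HSP30), 185 (HRK1), 221 (PHM8), 231 (YGP1), 297 (YLR297W) and 446 nt (YRO2). The median over 3824 genes was 129 nt, with quartiles of 91 and 187 nt, so YRO2 and YLR297W (at percentiles 96.5 and 91.6) had long UTRs for this table.

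Some ends ran into the neighbouring gene. The last YRO2 cluster (position 344654, 519 nt) lies inside PRP6, the last YLR297W cluster (724730, 297 nt) inside YHC1, and the main PHM8 cluster (227075, 221 nt) inside KRE29. These neighbours lie on the opposite strand. Each cluster was given here the strand of the gene it is listed under. The SPI1 cluster at 752 nt (469568) lies past the same-strand valine tRNA gene YNCE0026W (469457 to 469530).

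Of the 31 clusters 24 had 20 or more reads over the 6 libraries, and in 17 of these every deletion library was above every wild-type library in CPM, while in 0 the order was the opposite. Over all 7252 clusters of the table with that many reads, 7.17% had the deletion above and 5.98% had it below. The 17 clusters belong to genes grouped with their levels known, so nothing is read from that count. The share of the gene's reads at a cluster overlapped between groups in 21 of the 24. In both YGP1 clusters and the SPI1 cluster at 752 nt it did not, 1 being higher and 2 lower in the deletion. YGP1 has only these 2 clusters, so a higher share of 1 forces a lower share of the other. The groups also did not overlap in 10.0% of 7244 such clusters of the table (4.76% higher and 5.29% lower in the deletion), so 3 of 24 is close to the background and is no result about these genes as a group. In the test of the relative use of clusters 1 of 8 tested genes, YGP1, passed the threshold, against 5 of 2380 genes in all (0.21%). The YGP1 call was lost without deletion replicate 3, without wild-type replicate 1 or without wild-type replicate 3.

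**Figure D3:**
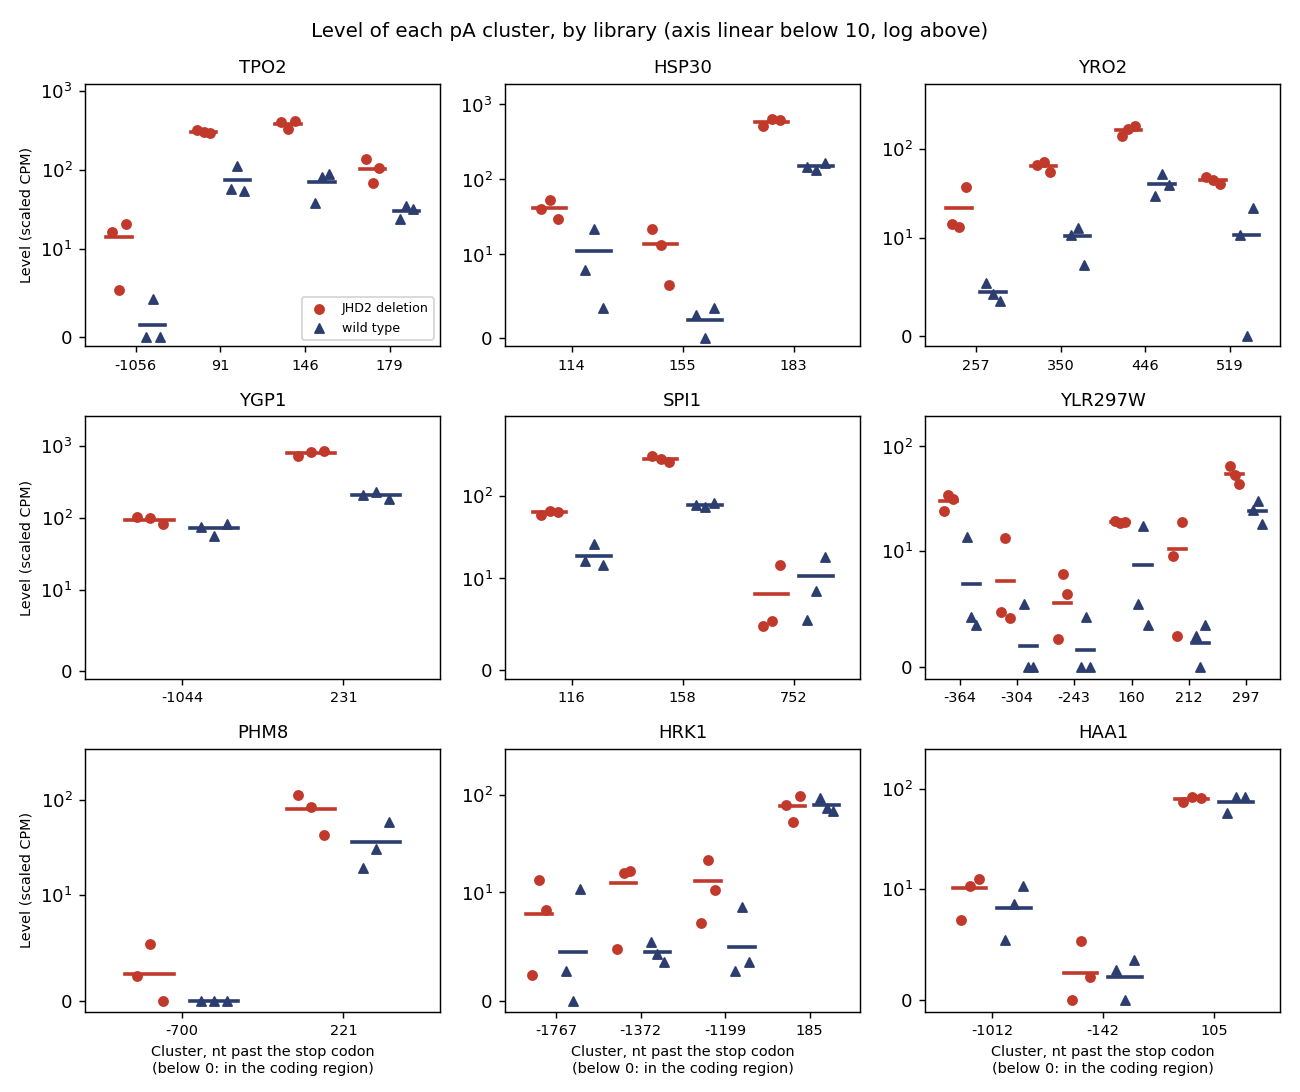
Level of each pA cluster (scaled CPM, linear below 10 and log above) by its distance past the stop codon, with deletion libraries as circles, wild-type libraries as triangles and group means as lines (n = 3 each). In TPO2, HSP30 and YRO2 all clusters are higher in the deletion, while the early YGP1 cluster, the last SPI1 cluster and the main HRK1 cluster lie close in both groups.

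In TPO2 the clusters at 91, 146 and 179 nt stood at 303 ± 16.0, 382 ± 42.2 and 104 ± 33.6 CPM in the deletion strain, against 74.7 ± 33.0, 70.3 ± 28.3 and 30.6 ± 5.43 CPM in wild type. Their log2 fold changes were 2.07 (SE 0.23), 2.50 (SE 0.24) and 1.80 (SE 0.32). The 146-nt cluster held 47.6% ± 2.02 of TPO2 reads in the deletion strain, against 39.3% ± 10.2 in wild type, and the groups overlapped. Another cluster, inside the coding region (764818), held 7, 2 and 10 reads in the deletion strain, against 0, 1 and 0 in wild type. Its scaled ratio was 13.1 with an exact 95% interval of 2.08 to 545, which covers counting error only.

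In HSP30 the end at 183 nt, shown above behind AATAAA and TATATA, took nearly all reads in both strains. Its share was 91.4% ± 2.80 in the deletion strain, against 91.7% ± 5.01 in wild type, and its level was 585 ± 65.8 CPM in the deletion libraries and 149 ± 16.2 CPM in the wild-type ones. The minor ends at 114 and 155 nt had log2 fold changes of 1.93 (SE 0.48) and 2.39 (SE 0.90), against 1.97 (SE 0.19) for the main end. The 114-nt end held 17, 20 and 14 reads in the deletion strain, against 3, 5 and 1 in wild type. The 155-nt end held 9, 5 and 3, against 1, 0 and 1, so these ratios rest on few reads.

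In YRO2 the 4 clusters at 257, 350, 446 and 519 nt had log2 fold changes of 2.23 (SE 0.67), 2.60 (SE 0.41), 2.07 (SE 0.27) and 1.92 (SE 0.46). Wild-type reads were few, with 2, 1 and 1 at 257 nt and 4, 3 and 2 at 350 nt. There were 11, 12 and 11 at 446 nt and 4, 0 and 6 at 519 nt. The main end at 446 nt, behind the TACATA repeat, held 55.6% ± 3.03 of reads in the deletion strain, against 60.8% ± 12.4 in wild type. The mean end of YRO2 was 422 ± 5.47 nt past the stop codon in the deletion strain, against 430 ± 17.1 nt in wild type. These groups overlapped too.

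In YGP1 the early end and the UTR end differed in how much higher they were in the deletion. The end 20 nt into the gene (336565), shown above just behind the start codon, held 43, 37 and 40 reads in the deletion strain, against 28, 13 and 23 in wild type. Its level was 95.3 ± 9.96 CPM with JHD2 deleted and 71.9 ± 13.9 CPM with it present, a log2 fold change of 0.38 (SE 0.25). The end at 231 nt (337840) held 301, 308 and 404 reads in the deletion strain, against 76, 53 and 50 in wild type. Its level was 797 ± 67.3 CPM with JHD2 deleted and 206 ± 24.5 CPM with it present, a log2 fold change of 1.96 (SE 0.18). The early end thus held 10.7% ± 1.75 of the reads given to YGP1 in the deletion strain, against 26.0% ± 5.95 in wild type. The groups did not overlap. A 3′ end does not show where its transcript began, so whether the early reads came from YGP1 transcripts was not tested. The YGP1 call in site use compares this early end with the UTR end alone.

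YLR297W also had ends close to the start codon. Where the transcripts that ended there began is not shown by these reads either. Its clusters 25, 85 and 146 nt into the gene held 13, 21 and 20 reads together in the deletion strain, against 7, 2 and 1 in wild type. That was 33.9% ± 8.93 of its reads in the deletion strain, against 21.6% ± 13.3 in wild type, with overlap. Its first cluster had a log2 fold change of 1.87 (SE 0.53) and its last one, at 297 nt, 1.15 (SE 0.35). A cluster within the first 200 nt of the coding region was found in 437 of 4013 genes (10.9%), and 2 of the 9 genes, YGP1 and YLR297W, had one.

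**Figure D4:**
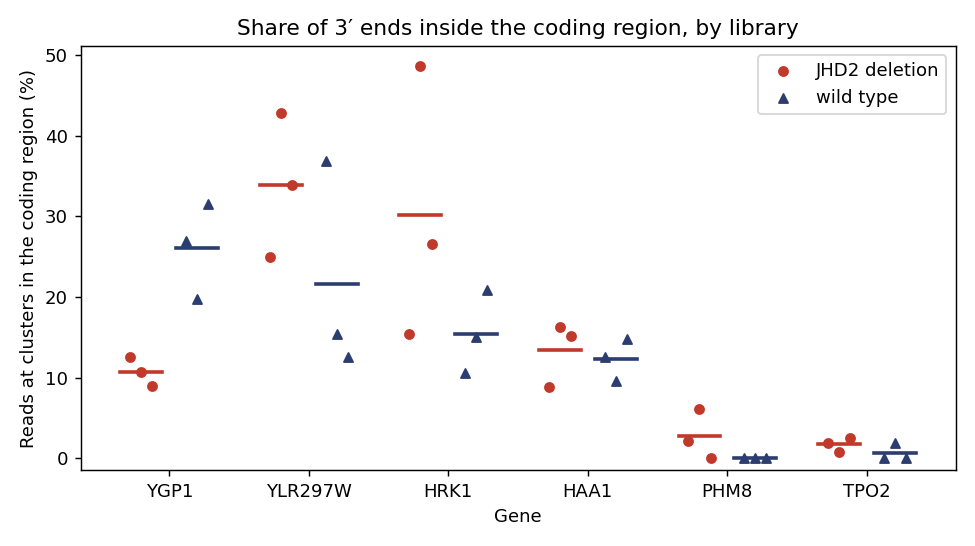
Share of the reads of each gene that lie at clusters inside its coding region, in percent, for the 6 genes that have such clusters, with deletion libraries as circles, wild-type libraries as triangles and group means as lines (n = 3 each). For YGP1 every deletion library lies below every wild-type library, and for the other 5 genes the groups overlap.

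In SPI1 the clusters at 116 and 158 nt had log2 fold changes of 1.78 (SE 0.36) and 1.85 (SE 0.22). The main end at 158 nt held 131, 106 and 124 reads in the deletion strain, against 29, 17 and 23 in wild type. The far SPI1 cluster (752 nt) held 2, 2 and 7 reads in the deletion strain, against 2, 2 and 5 in wild type, and its log2 fold change was -0.25 (SE 0.70). Its share was 2.36% ± 1.70 with JHD2 deleted and 9.68% ± 5.31 in wild type, without overlap, and the mean SPI1 end lay at 165 ± 9.63 nt in the deletion strain, against 208 ± 33.0 nt in wild type. That shift rests on these few reads at an end past a same-strand tRNA gene. Whether they belong to SPI1 transcripts was not tested.

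In HRK1 the main end at 185 nt was close in both strains, with 33, 20 and 47 reads in the deletion strain, against 34, 17 and 19 in wild type, or 77.1 ± 22.8 CPM with JHD2 deleted and 78.3 ± 12.4 CPM with it present. Its 3 clusters inside the coding region held 6, 19 and 17 reads together in the deletion strain, against 4, 3 and 5 in wild type. They made up 15.4%, 48.7% and 26.6% of HRK1 reads in deletion replicates 1 to 3 and 10.5%, 15.0% and 20.8% in wild-type replicates 1 to 3. The groups overlapped, and deletion replicate 2 was the highest. In HAA1 the end at 105 nt, behind a run of TATATA, held 86.6% ± 4.01 of reads in the deletion strain, against 87.7% ± 2.65 in wild type. PHM8 had 97.3% ± 3.08 of its reads at 221 nt in the deletion strain, against 100% in wild type.

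The sequence before the ends was searched on the transcript strand for the efficiency element TATATA, its variants TACATA and also TATGTA, and the hexamer AATAAA within 100 nt. At least 1 of these words stood before 13 of the 20 member clusters past the stop codon (65%) and before 66.0% of such clusters in the whole table. For clusters inside the coding region the counts were 1 of 11 (9.09%) and 35.1%. Neither YGP1 end had one of the words, and the TPO2 end at 146 nt had none either. A word is a description of these letters and not a mapped element.

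The 500 nt before each start codon were searched on both strands for the core of the Haa1-binding element, a pentamer of G or C, then A or C, then a pair of G, then G or C (such as GAGGG). One or more of these words occurred in 7 of the 9 genes and in 91.1% of the 4013 genes of the table, so most genes hold a match. The count was 9 for SPI1, 7 for PHM8, 4 for YGP1, 3 for HRK1, 3 for HAA1, 1 for TPO2, 1 for YLR297W and 0 for YRO2 and HSP30, against a median of 3 over all genes. The stress element AGGGG, bound by Msn2 and Msn4, occurred in 3 of the 9 genes (3 in SPI1, 3 in PHM8 and 1 in YGP1) and in 34.3% of all. There were 3 or more matches in 2 of the 9 genes and in 1.69% of all, a difference that was not tested. The stress element overlapped 2 of the words in SPI1, 1 in PHM8 and 0 in YGP1. The 30-base windows with the most words are shown for SPI1 and PHM8, the richest, with those of TPO2 and HAA1. The capitals mark the words on either strand.
SPI1 promoter, 166 to 137 nt before the start codon (chrV:468204-468233, plus strand): ccaaatGAGGGctttccatCCCTGttagct
PHM8 promoter, 326 to 297 nt before the start codon (chrV:225563-225592, plus strand): aaaaaaGCCGGCggtcGCCGCCGGagatgg
TPO2 promoter, 119 to 90 nt before the start codon (chrVII:765696-765725, minus strand): tcttttatcaaagCCCTGctattattcttt
HAA1 promoter, 172 to 143 nt before the start codon (chrXVI:572846-572875, plus strand): gCAGGGaagcttttccaaggaaaaGAGGGt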

How the data were processed

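The deposited values are raw read counts for each pA cluster in each library. Per the labels, reads were aligned to sacCer3 with Bowtie2 in local mode (version not given in the sources used here) and kept with a mapping quality of 10 or more and 2 or more unaligned 5′ T bases. Ends were clustered within 24 bp and given to genes extended by up to 1000 bp. Clusters below 3 reads or 5% of a gene's reads are described as dropped. The 5% rule did not hold for every cluster here. In no library did the TPO2 cluster at 764818 exceed 2.54% of the gene's reads, or the HSP30 cluster at 155954 exceed 3.77%. Genes in the table have 2 to 10 clusters, so column totals are not library depths. The R64 RefSeq annotation is the same assembly and matched 4013 of 4014 genes.

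On both strands the genomic base 1 past the deposited position was A in 95.0% and 94.3% of well-read clusters, and the transcript's next base was A in 0%. Deposited positions were therefore taken to count from 0, and those printed count from 1.

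Counts were summed per gene and fitted with edgeR 4.0.16 in R 4.3.3 (quasi-likelihood test, TMM, default low-count filter, Benjamini-Hochberg over 3366 genes). All 9 genes passed that filter. The SE is the fold change over the square root of F. Clusters were scaled to the same library sizes, so that they add up to their gene. Site use was tested with diffSpliceDGE on clusters with 20 or more reads. Alternatives used limma 3.58.1 and DESeq2 1.42.0. The tests were checked on counts simulated from a model fitted to these data, which included no library that stands apart. Of level changes, 82.8% at 2-fold and 100% at 4-fold were recovered, and 5.38% of calls were false. Of 4-fold changes at 1 cluster, 83.4% were recovered, and 4.73% of calls were false.

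Members and lists were chosen with earlier results of these data known. Named are all members, JHD2, the 5 genes most correlated with the members' mean profile among genes averaging at least 20 reads in the higher group, and from each list all called genes or else the one with the smallest p. Other listed genes are named for completeness. One listed item is not reported here.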

Additional observations from a re-analysis of the deposited data

How the results depend on the processing

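The count of 6 members called higher was 6 or 7 without any one library (7 without deletion replicate 3 or wild-type replicate 3, which added PHM8), 5 with the most-read cluster only, which lost YLR297W, and 6 under the other alternatives. Over all genes 36 were called higher, 21 by the DESeq2 Wald test and 26 to 39 without one library. There were 8 lower calls, 5 by the DESeq2 Wald test, 5 with the replicate block, 3 with the most-read cluster only and 4 to 15 without one library. No pairing by replicate number showed in these counts, where deviations of same-numbered libraries had correlations of -0.113, -0.0119 and -0.00734. These values do not show whether such libraries were prepared together. With the replicate block 28 genes were higher, the member count stayed at 6 and 2 genes changed in site use. For site use 5 genes were called, 2 with a cluster minimum of 10, 2 by limma-voom, 1 with clusters past the stop codon only and 0 to 4 without one library. YGP1 was called in all of these except without deletion replicate 3, wild-type replicate 1 or wild-type replicate 3, and with clusters past the stop codon only, where it has 1 cluster and was not tested. The member count was thus 0 or 1 without one library and 0 past the stop codon. The log2 fold changes of TPO2, YRO2, YGP1, SPI1 and HSP30 stayed between 1.65 and 2.50 under all 12 alternatives. HAA1 ranged from -0.05 to 0.29, HRK1 from -0.02 to 0.37 and PHM8 from 0.81 to 1.76. Clusters of HAA1 and HRK1 fell below the count minimum without a library, so their site use has no value there. Counts under 20 reads per cluster limit what can be said of minor ends. The cause of these changes was not tested.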
